A study of Mus musculus with 4 samples.

Results

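Interferon-stimulated genes are the genes a cell switches on when interferon binds its receptor, and 38 of them were followed here in immune cells of the mouse mammary gland. The list was given by gene symbol, and all 38 symbols were found in both deposited gene matrices, among 55253 genes matched between the 2. CD45+ cells had been pooled in 2 droplet libraries, called here library A (the earlier by the year in its name) and library B, after the cells of each group were marked with a hash tag, an antibody that carries a short DNA barcode. The groups follow the reproductive cycle of the gland: nulliparous animals, gestation, lactation, involution after nursing stops, and regression. There was also a sample named Balb/c, after that mouse strain, and a sample named GF. The name GF is read here as germ-free, for animals raised without microbes. Library A has Nulliparous, Gestation, Lactation and a sample on tag HT2, and library B has Gestation, Lactation, Involution, Regression, Balb/c, GF and a sample on tag HT2. Both tag sheets call HT2 Germ-free. The title of library A, however, lists involution and no germ-free sample, and the sheet of library B already has GF on tag HT12. The sample on HT2 is therefore called the HT2 sample and stays out of the test between stages. It enters comparisons made within samples, and the rankings of the samples of a library. Strain (apart from Balb/c), age, day within a stage, and the number of mice behind a tag are not stated in the labels. The Lactation tag of library B was weak, with a median of 6 tag counts in its 780 cells, against 13 to 65 for the other tags there. Each name has 1 sample per library, so only Gestation and Lactation, with 1 sample in each library, can be compared with any replication. P-values between samples measure the spread between these pools, which may be technical.

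Cells were sorted into classes by 6 genes that are not on the list: Cd3e for T cells, Ncr1 for NK cells, Ms4a1 for B cells, Xcr1 for type 1 dendritic cells, C1qa for macrophages, and Csf1r without C1qa for monocytes. A cell had at least 1 UMI (unique molecular identifier, the count of 1 captured RNA molecule) of its own gene and 0 of the others, except that Csf1r was allowed beside C1qa. The analysed cells numbered 15094 in library A and 14557 in library B, of which 50.9% and 66.4% fell into a class. Over all 21604 cells of library A and 21177 of library B, before the choice of analysed cells, median depth was 1599 and 3049 UMIs per cell, and 139 cell barcodes occurred in both libraries. In the T cell gate Cd3d, a subunit of the T cell receptor complex, had a UMI in 64.7% of the library A cells. C1qb, a partner of C1qa in complement, had a UMI in 85.1% of the library A macrophages. The monocyte gate was mixed. In its library A Gestation and Lactation, 5 macrophage markers gave 31.6 and 25.1 UMIs per 10000, against 27.6 and 18.8 for 5 monocyte markers. In library B the same sums were 16.4 and 20.6, against 37.4 and 27.8, and 4 neutrophil markers gave 28.5 and 14.5. The part of other cells in the monocyte results was not tested. The macrophage gate also held cells with Siglech, a plasmacytoid dendritic cell marker, at 6.11% in library A and 11.01% in library B. RNA of other cells was counted in every class: Csn2, the milk protein beta-casein, had a UMI in 41.0% of T cells in library A and 74.9% in library B. Barcodes with under 100 UMIs in the library A matrix hold such free RNA, and in them the 38 genes gave 16.9 UMIs per 10000 UMIs (6455 of 3826915). The library B matrix holds no such barcodes, so its free RNA could not be measured.

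Type I interferons act through the receptor chains Ifnar1 and Ifnar2 and the kinases Jak1 and Tyk2, which activate Stat2. A complex that holds Stat2 and Irf9 binds a DNA element called the ISRE, while interferon gamma acts through a different element, the GAS. The products block viral entry, translation and RNA replication, tag proteins, sense foreign nucleic acid and feed back on the pathway, and immune cells of healthy tissue make some of them without infection. The list was split by role into the IFIT family, which binds foreign RNA, the 2'-5' oligoadenylate synthetases, the ISG15 system, transcription factors, nucleic acid sensors, GTPases, membrane and other restriction factors, and a remainder.

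The ISRE core was far more frequent in promoters of the list than over all genes, while the GAS core was near its share over all genes. RefSeq sequences (build GRCm38.p6) were at hand for 30 of the 38 genes, and the 250 bases before each start were searched on both strands. The ISRE core, GAAA then any 2 bases then GAAA, was found in 18 of the 30 (60%), against 936 of 27025 genes in the table (3.46%). The GAS core TTCNNNGAA was found in 4 of the 30 (13.3%), against 8.13% of all genes. The 4 printed here show a run of overlapping ISRE matches (Isg15), 2 matches on the reverse strand (Ifit3), a single one (Rsad2), and an ISRE beside a GAS match (Igtp). Overlapping matches were counted once per gene. The sequences run 5′ to 3′ along the gene, with every ISRE or GAS match in capitals.
Isg15, chr4:156200819-156201068, minus strand: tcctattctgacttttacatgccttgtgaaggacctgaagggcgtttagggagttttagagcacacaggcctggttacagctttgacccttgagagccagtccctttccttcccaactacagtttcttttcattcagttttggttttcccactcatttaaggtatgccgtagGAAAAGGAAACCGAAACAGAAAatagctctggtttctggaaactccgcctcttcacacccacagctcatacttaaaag
Ifit3, chr19:34583279-34583528, plus strand: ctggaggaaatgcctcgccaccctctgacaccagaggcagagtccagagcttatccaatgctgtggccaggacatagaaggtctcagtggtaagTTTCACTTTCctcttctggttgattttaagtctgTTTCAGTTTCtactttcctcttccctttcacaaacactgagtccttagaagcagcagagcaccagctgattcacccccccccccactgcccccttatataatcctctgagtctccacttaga
Rsad2, chr12:26456453-26456702, minus strand: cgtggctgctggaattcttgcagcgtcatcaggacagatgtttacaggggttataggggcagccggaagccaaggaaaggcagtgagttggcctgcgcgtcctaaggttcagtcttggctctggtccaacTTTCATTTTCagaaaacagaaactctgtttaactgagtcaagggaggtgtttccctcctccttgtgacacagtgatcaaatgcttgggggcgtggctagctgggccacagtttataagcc
Igtp, chr11:58199306-58199555, plus strand: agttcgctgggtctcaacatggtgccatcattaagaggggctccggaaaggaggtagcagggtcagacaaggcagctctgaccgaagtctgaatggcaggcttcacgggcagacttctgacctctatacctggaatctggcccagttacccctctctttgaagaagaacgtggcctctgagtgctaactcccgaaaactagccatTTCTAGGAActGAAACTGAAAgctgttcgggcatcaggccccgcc
A match is a stretch of letters and not a measured binding site.

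The summed level of the 38 genes was higher in monocytes and macrophages than in T, NK and B cells of the same sample, in 11 of 11 samples. In T cells of library A they gave 15.0 UMIs per 10000 in Nulliparous, 14.0 in Gestation, 18.4 in Lactation and 15.7 in the HT2 sample. In monocytes of the same samples they gave 55.6, 65.0, 88.7 and 47.2. The monocyte and T cell ranges did not overlap, and the monocyte level was above the T cell level in 11 of 11 samples, with a median ratio of 3.08. Macrophages were above T cells in 11 of 11 samples too (median ratio 2.18), and monocytes above macrophages in 9 of 11. In library B the lowest, median and highest samples were 18.4, 21.6 and 28.6 in T cells, 36.4, 53.5 and 75.9 in macrophages, and 43.1, 68.5 and 88.2 in monocytes. NK cells were below T cells in 11 of 11 samples, at 11.9 to 17.3 in library A and 14.2 to 17.6 in library B. B cells had 13.8 to 42.8 in library A and 13.9 to 34.5 in library B, and dendritic cells, with enough cells in 5 samples, had 14.7 to 44.3. The dendritic sums had 39 to 61 cells each, and a single cell held 5.21% to 28.0% of their member UMIs. The share was highest in library A Gestation, at 26.8 UMIs per 10000 with that cell and 19.8 without it. T, NK and B cells thus lay on either side of the free RNA level of 16.9. With the library A samples pooled, 33 of the 38 genes were above their own free RNA interval in macrophages and 31 in monocytes. The numbers were 22 in dendritic cells, 15 in T cells, 16 in NK cells and 12 in B cells. Below it were 1 in macrophages, 1 in monocytes, 12 in each of T, NK and dendritic cells, and 14 in B cells. The interval covers the counting error of the free RNA only, and no such count was made over all genes.

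**Figure D1:**
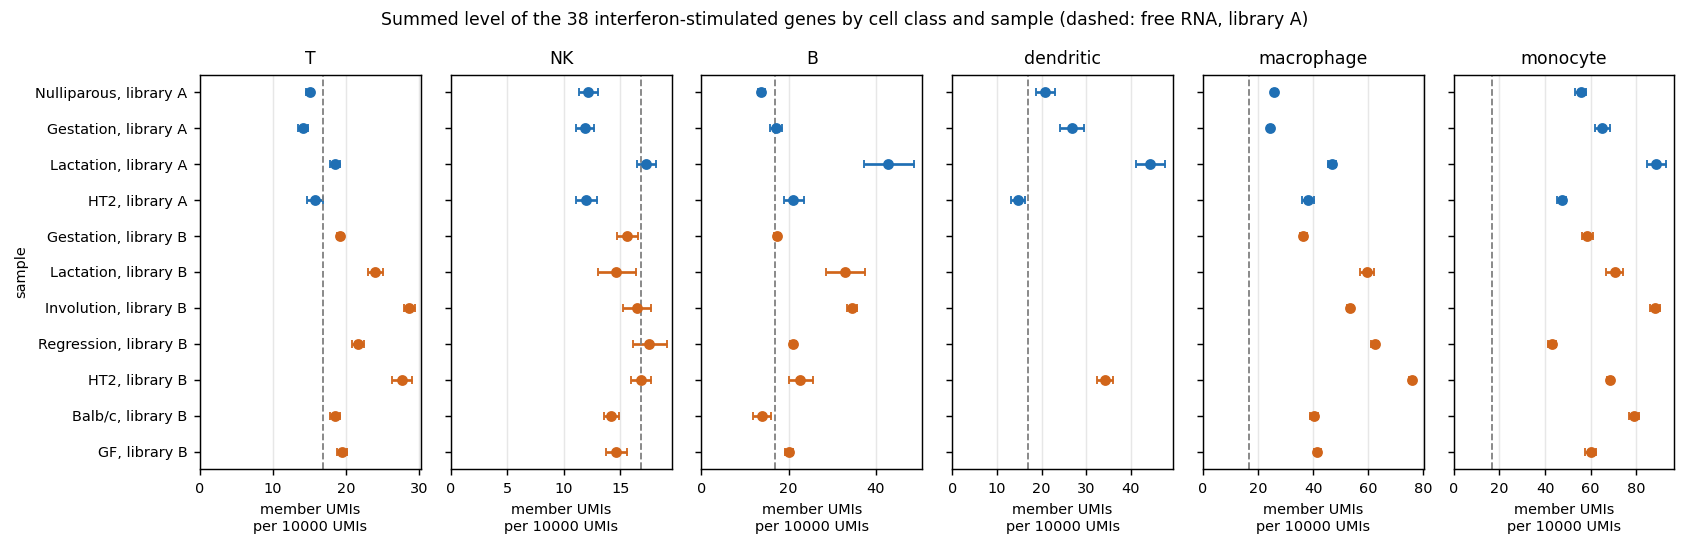
Summed UMIs of the 38 interferon-stimulated genes per 10000 UMIs (horizontal axis, scaled separately in each panel) for every sample (rows) in each gated class with at least 20 cells. Blue points are library A and orange points library B, bars are exact 95% Poisson intervals that cover counting error only, and the dashed line is the library A free RNA at 16.9. Macrophage and monocyte points lie to the right of the line in every sample, while NK points lie around or below it.

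The sum was carried by few genes. Ifi27l2a, a small membrane protein gene, held 26.7% of the members' UMIs in library A and 27.2% in library B, and Ifitm3, which blocks virus entry at endosomes, held 16.8% and 17.2%. Bst2 (tetherin, which holds budding virus at the cell surface) followed with 5.67% and 5.37%, and Samd9l, which restricts translation, with 4.73% and 4.94%. The remaining 6 of the 10 most counted genes were the same in both libraries: Parp14, an ADP-ribosyltransferase; Trim30a; the GTPase gene Ifi47; Slfn5; Slfn8; and Irf9, a subunit of the ISRE-binding complex. The least counted IFIT gene, Ifit3b, had 39 UMIs in library A and 319 in library B. Ifit3 and Ifit3b, and Ifit1 and Ifit1bl1, are close copies, so the split of reads within each pair is uncertain, as it may be between Gbp2 and Gbp3 and within the oligoadenylate synthetase family. Without Ifitm3 the median ratio of monocytes to T cells was 2.49 in library A and 2.04 in library B, against 4.16 and 3.05 with it. Leaving it out was chosen after seeing the data. In monocytes Ifitm3 held 38.4% of the member UMIs in library A and 33.2% in library B, against 3.31% and 3.73% in T cells. Ifi27l2a held 32.2% and 31.0% in monocytes, against 27.6% and 27.7% in T cells. The ratio with both genes left out was not computed.

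Cells with many of these transcripts were found in each class, at unequal shares. Each cell was thinned to 1000 UMIs, and cells with at least 5 member UMIs were counted. This is a range of a sum and not a cell type, and UMIs of Ifitm3 and Ifi27l2a count in it. In monocytes 43.5% to 70.7% of cells reached 5 in the library A samples and 33.3% to 63.9% in library B. In macrophages the ranges were 14.3% to 42.3% and 28.2% to 56.9%, and in T cells 4.19% to 9.14% and 7.20% to 19.7%. Counting 4 and 5 UMIs shows how many cells lie next to the cut: in the library B T cells, 247 cells had 4 and 152 had 5, among 3483. Without thinning, the T cell share was 9.84% in the library A Gestation and 58.4% in the library B Gestation, where the T cells had median depths of 1272 and 3156 UMIs.

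Sums per sample and class were then tested against T cells with edgeR's quasi-likelihood test, with the sample as a block and Benjamini-Hochberg adjustment over all 9843 genes that passed its filter. Of the 38, 37 passed that filter, all but Ifit3b. In monocytes 29 of the 37 were higher than in T cells and 4 were lower, with a median log2 fold change of 1.11, against -0.13 over all genes; 61.7% of all genes were called, 28.2% higher and 33.5% lower. In macrophages 27 were higher and 5 lower (median 1.20, against -0.04 over all genes), where 65.2% of all genes were called, 32.9% higher and 32.3% lower. In dendritic cells 16 were higher and 8 lower (median 0.70, against -0.14 over all genes, and 0.70 with the genes at 0 counts set to their bound), where 37.4% of all genes were called, 17.7% and 19.6%. In B cells 8 were higher and 10 lower (median -0.04, against -0.09), where 45% of all genes were called, 17.7% and 27.3%. The B cell median had no stable sign: it was 0.26 with library A alone, 0.08 with a gate of at least 2 UMIs, and 0.19 with gates that were not exclusive, where 12 were higher and 8 lower. In NK cells 1 was higher and 6 were lower (median -0.26, against -0.02), where 19.5% were called, 8.82% and 10.7%. The NK cell calls were few, and whether they differ from these background shares was not tested. With library A alone 1 gene of the list was called in NK cells.

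The oligoadenylate synthetase family is named after enzymes that make the second messenger that activates RNase L. Its genes had the highest median log2 fold change of the 8 roles in macrophages and in monocytes. All 5 were higher in monocytes and 4 of 5 in macrophages, at medians of 2.39 and 2.71. Oasl2, a family member with a ubiquitin-like tail, had 0.0274 to 0.0749 UMIs per 10000 in the T cells of library A and 0.0381 to 0.187 in library B. In macrophages Oasl2 had 0.299 to 0.806 and 0.243 to 1.38, above the T cells of the same library in every sample. Its log2 fold change was 3.47 (SE 0.21) in macrophages (edgeR adjusted p = 2.7e-21) and 3.35 (SE 0.23) in monocytes (adjusted p = 3e-19). Oas2 was 3.001 (SE 0.20) higher in macrophages and 2.39 (SE 0.24) in monocytes. Oas1a was 2.71 (SE 0.27) and 2.58 (SE 0.29) higher on the same scale. Oasl1 was higher in all 3 of B cells (2.35, SE 0.37), dendritic cells (2.35, SE 0.61) and macrophages (2.67, SE 0.32). In B cells Oas2 and Oasl2 were also higher (1.14 and 1.37), while Oas3 was lower (-1.40, SE 0.27).

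Among the restriction factors, Ifitm3 had the largest rise of all members in monocytes and in macrophages. It had 0.393 to 0.730 UMIs per 10000 in the library A T cells and 20.9 to 29.4 in the library A monocytes, and 0.532 to 2.38 against 13.4 to 28.3 in library B. The ranges were far apart, and the log2 fold change was 5.03 (SE 0.24) in monocytes (edgeR adjusted p = 2.9e-25), 3.74 (SE 0.23) in macrophages and 2.36 (SE 0.29) in dendritic cells. Rsad2 (viperin, which makes a chain terminator of viral RNA) was 2.66 (SE 0.31) higher in macrophages and 2.53 (SE 0.34) in monocytes. Bst2 was 2.20 (SE 0.16) higher in macrophages and 1.11 (SE 0.17) in monocytes. Slfn5 was higher in monocytes (2.14), dendritic cells (2.54), macrophages (1.52) and B cells (0.76), and lower in NK cells (-1.16, SE 0.21). Slfn8, its relative, was lower in macrophages (-0.30), monocytes (-0.28) and dendritic cells (-1.56).

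The GTPases split into 2 sets. Gbp3, a guanylate-binding protein gene, was higher in macrophages (2.05, SE 0.18) and monocytes (1.65, SE 0.20), and Mx1, an antiviral dynamin relative, was higher in dendritic cells (2.71, SE 0.38), monocytes (1.77) and macrophages (1.33). Igtp and Ifi47, immunity-related GTPases that act on the vacuoles of intracellular pathogens, were lower than in T cells in each of those 3 classes and in B cells. Igtp had 0.503 to 0.591 UMIs per 10000 in the library A T cells and 0.511 to 1.07 in library B, against 0.0781 to 0.327 and 0.166 to 0.357 in monocytes. Its log2 fold change was -1.45 (SE 0.18) in monocytes (edgeR adjusted p = 2.6e-10), -2.40 (SE 0.37) in dendritic cells, -1.57 (SE 0.18) in B cells and -0.84 (SE 0.15) in NK cells. Ifi47 was lower by similar sizes in B cells (-1.77, SE 0.17) and dendritic cells (-1.63, SE 0.29). Gbp2 was lower in B cells (-1.59, SE 0.26), and Irgm1 passed the test in none of the 5 contrasts.

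Among the IFIT genes, Ifit3 (1.85, SE 0.23), Ifit1 (1.03, SE 0.28) and Ifit2 (0.87, SE 0.26) were higher in macrophages than in T cells, and Ifit3 (1.70) and Ifit1 (0.83) in monocytes. Ifit1bl1 went the other way and was lower in all 5 classes, with a log2 fold change of -1.88 (SE 0.33) in NK cells and -1.80 (SE 0.31) in macrophages. Ifit1bl1 gave 0 UMIs among 1134153 in the dendritic cells of the 5 samples, which allows up to 0.0265 per 10000 (3 counts over the 5), at least 6.03-fold lower than the 0.160 in T cells of the same samples. Oas2 also gave 0 there, but at the T cell level of 0.0299 only 3.39 UMIs would have been counted, so no fold is given. Gbp3 gave 1 UMI in dendritic cells, against 11.3 at the T cell level.

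The remaining roles were mostly higher in the myeloid gates. The 3 transcription factor genes were higher in monocytes, macrophages and dendritic cells, with Irf7, the master regulator of interferon alpha genes, at 1.62 (SE 0.16), 1.20 (SE 0.16) and 1.38 (SE 0.26). Stat2 was also higher in B cells (1.12, SE 0.15). Both genes of the ISG15 system, the ubiquitin-like modifier Isg15 and its protease Usp18, were higher in the same 3 classes, with Isg15 at 1.37 in monocytes and Usp18 at 1.55 in dendritic cells; Isg15 was lower in B cells (-0.96, SE 0.33). All 3 nucleic acid sensor genes were higher in monocytes: Ifih1 (MDA5, 1.71), Dhx58 (LGP2, 1.47) and Zbp1 (0.88). Ifih1 and Zbp1 were lower in B cells (-1.44 and -0.82). Ifi44 had the largest log2 fold change in dendritic cells (4.55, SE 0.59) and was the single gene called higher in NK cells (1.53, SE 0.48; edgeR adjusted p = 0.017). The NK cell call was lost with either library alone (adjusted p = 0.20 and 0.13), with a gate of at least 2 UMIs (0.084) and with gates that were not exclusive (0.075). Ifi27l2a was higher in monocytes (1.97, SE 0.19) and lower in NK cells (-2.15, SE 0.21), where it had 0.862 to 1.84 UMIs per 10000 against 3.49 to 8.87 in T cells.

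**Figure D2:**
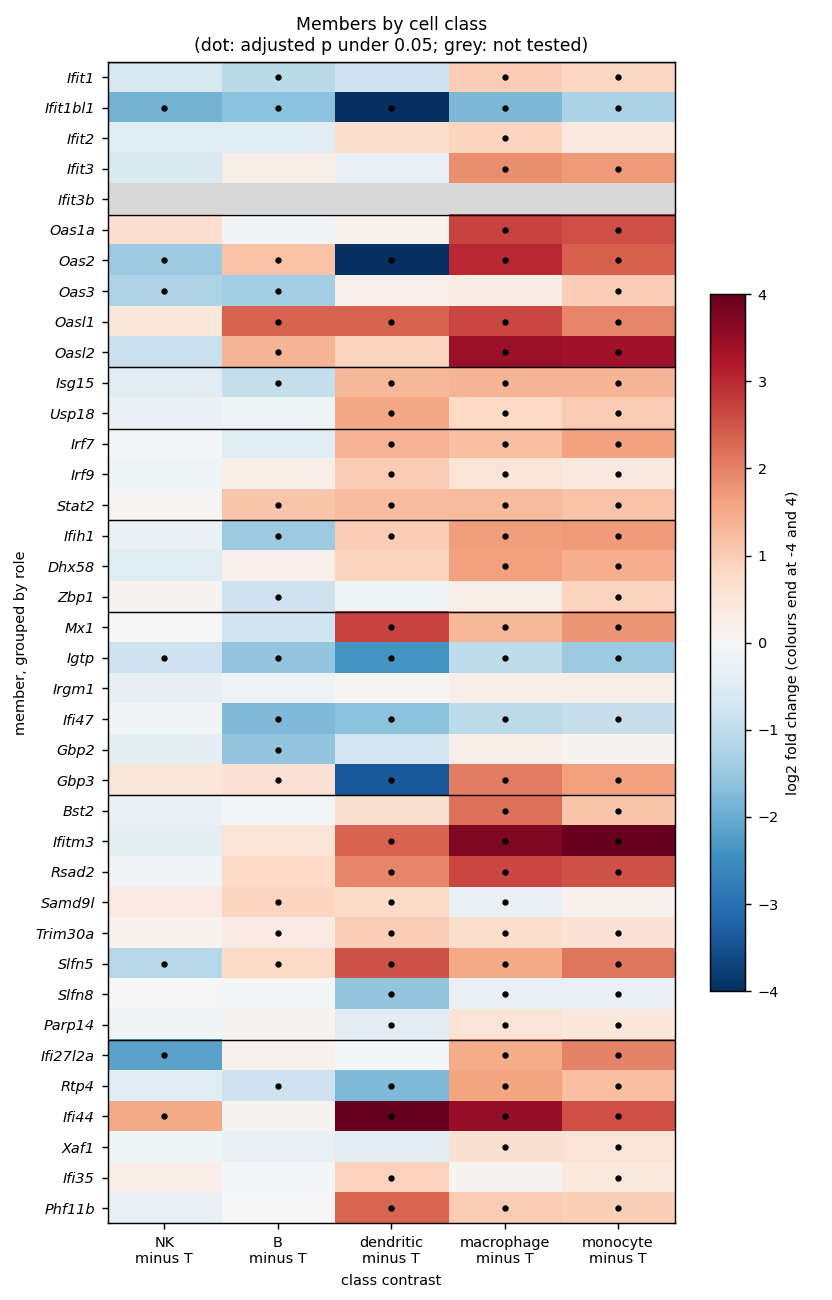
Log2 fold change of each member (rows, grouped by role between black lines) in 5 class contrasts against T cells (columns), red for higher and blue for lower, with colours ending at -4 and 4. A dot marks an edgeR adjusted p under 0.05 and grey marks the gene that was not tested. The macrophage and monocyte columns are mostly red. Igtp and Ifit1bl1 stay blue across the columns, and Ifi47 is blue in the B cell, dendritic, macrophage and monocyte columns.

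The parts of the pathway outside the list were 51 genes, of which 38 were tested. In macrophages 20 were higher and 11 lower (background 65.2% called), in monocytes 15 and 12 (61.7%), in dendritic cells 14 and 8 (37.4%), in B cells 8 and 17 (45%), and in NK cells 8 and 3 (19.5%). Irf5, which drives inflammatory cytokine genes, was higher in monocytes (4.35, SE 0.13), macrophages (3.62), dendritic cells (4.47) and B cells (2.98). The endosomal RNA sensor Tlr7 was higher in monocytes (4.16) and macrophages (4.12), and the double-stranded RNA sensor Tlr3 in dendritic cells (7.26, SE 0.28). Ifngr2, a chain of the interferon gamma receptor, was higher in monocytes (2.87) and lower in NK cells (-2.65), and Ifnar2, of the type I receptor, was higher in macrophages (1.21). Ifng itself, encoding interferon gamma, was lower in each of B cells (-4.10), macrophages (-3.28) and monocytes (-3.44), and higher in NK cells (0.59). The kinase gene Jak1 was lower in macrophages (-1.18), and the inhibitor Socs1 in macrophages (-1.95), monocytes (-2.39) and B cells (-2.64).

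Cells with a UMI of an IFIT gene also carried more of the other interferon-stimulated genes. Each cell was thinned to 1000 UMIs and split by whether it kept a UMI of Ifit1, Ifit1bl1, Ifit2, Ifit3 or Ifit3b; those 5 chose the cells and are no result, while the other 33 are. In T cells 17 of the 21 genes that passed the filter rose and 0 fell (median log2 fold change 1.03, against -0.03 over all genes; 1.66% of all genes were called, 1.08% higher and 0.573% lower), over 11 samples. In macrophages 29 of 32 rose and 0 fell (median 1.40, against -0.05; background 3.8%, 2.46% higher and 1.34% lower), over 8 samples. In B cells 15 of 25 rose and 0 fell (median 1.58, against -0.15; background 1.5%, 0.824% higher and 0.673% lower), over 4 samples, all of library B. All of these are edgeR's quasi-likelihood test with the sample as a block. With DESeq2 the counts were 16, 27 and 8. The filter could keep a gene through either side, so genes high in cells with an IFIT UMI may have entered for that reason. Without the filter 19 of 33 rose in T cells, 28 in macrophages and 9 in B cells, and 0 fell. Of all genes, 354 of 23134, 501 of 21714 and 146 of 19157 were then called in the same order, 62, 126 and 38 of them higher.

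The log2 fold change of Isg15 was 2.47 (SE 0.23) in T cells, 2.67 (SE 0.20) in macrophages and 3.41 (SE 0.56) in B cells, with edgeR adjusted p of 2.5e-11, 2.6e-13 and 4.1e-07. Slfn5 rose by 2.07 (SE 0.23), 1.67 (SE 0.16) and 2.75 (SE 0.23) in the same 3 classes. Irf7 rose by 1.36, 1.96 and 2.19, and Rtp4, a receptor-transport protein, by 1.35, 1.32 and 2.81. In macrophages the largest rise was that of Rsad2 (3.34, SE 0.20), followed by Isg15, Ifi44 (2.61, SE 0.34), Oasl1 (2.59, SE 0.24), Mx1 (2.41, SE 0.25), Oas3 (2.18), Zbp1 (2.09) and Irf7. In T cells Phf11b (1.23), Xaf1 (1.12), Parp14 (1.10) and Gbp2 (1.09) were next, and in B cells Usp18 (2.66), Oasl2 (2.28), Gbp2 (2.22) and Ifi47 (1.88). Irf9 failed the test in all 3 classes. The other tested genes that failed were Stat2, Ifitm3 and Ifi35 in T cells, Gbp3 and Ifi27l2a in macrophages, and Bst2, Gbp3, Ifi35, Igtp, Oasl1, Samd9l, Slfn8, Stat2 and Zbp1 in B cells. Igtp and Ifi47, which were lower in macrophages than in T cells, rose in macrophages with an IFIT UMI by 1.85 (SE 0.25) and 1.73 (SE 0.19).

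**Figure D3:**
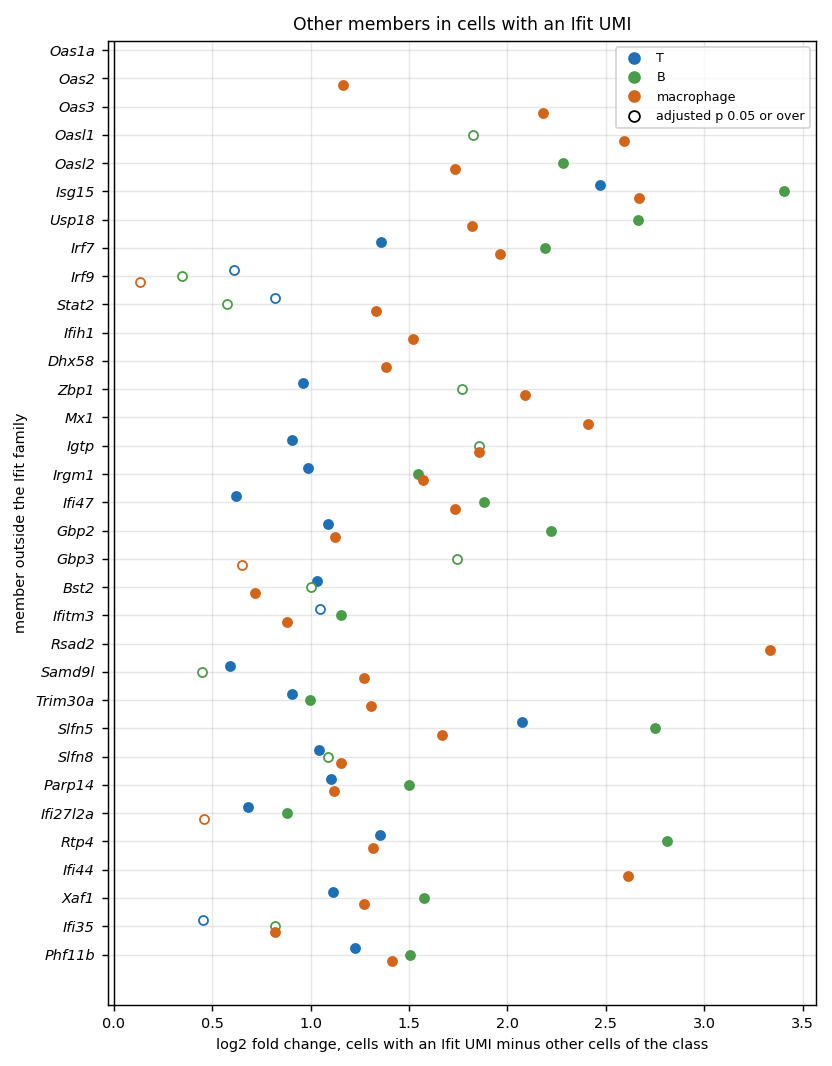
Log2 fold change (horizontal axis) of each member outside the IFIT family (rows) between cells with and without an IFIT UMI, in T cells (blue), B cells (green) and macrophages (orange). Filled points have an edgeR adjusted p under 0.05, open points do not, and a gene without a point did not pass the filter. Every point lies right of 0.

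Genes outside the list rose beside them. In T cells the 10 largest were Ehd4, Fabp4, Slfn1, Eif2ak2, Daxx, Herc6, Ifi206, Ifi213, Trafd1 and Parp9, at 1.02 to 1.19; Eif2ak2 encodes the antiviral kinase PKR. In macrophages they included Cmpk2, Slfn1, Ifi211, Ifi213, Ifi206 and Cxcl10, a chemokine induced by interferon (1.96, SE 0.31). In B cells Cmpk2 (2.98), a mitochondrial nucleotide kinase next to Rsad2, stood beside Cd36 (2.91), Fabp4 (2.68), Fabp5 (2.81) and Sparcl1 (2.20), which are known from capillary endothelium and fat. Fabp4 moved with the split in all 3 classes (1.16 in T cells, 1.18 in macrophages). Other genes fell, those named here being chosen after their values were seen. In T cells 27 fell, among them the plasma cell genes Jchain (-3.10, SE 0.27) and Igkc (-2.39) and the killer cell genes Gzma (-1.33, SE 0.22), Klra7 (-1.47) and Klrc1 (-1.55). In B cells 40 fell, with Jchain at -4.11 (SE 0.32) and the milk protein genes Wap at -4.15 (SE 0.32) and Csn3 at -2.94. In macrophages 79 fell, with Jchain at -3.62, Gzma at -3.26 and Csn3 at -3.51. The NK cell markers summed to a median of 2.30 UMIs per 10000 in T cells with an IFIT UMI and 3.86 without, and the 3 plasma cell markers to 1.45 and 7.76; the part of these genes and markers in the result was not tested. The summed stromal markers Col1a1, Col3a1, Pecam1 and Cdh5 had medians of 2.46 per 10000 in B cells with and 2.44 without an IFIT UMI, and 0.694 and 0.651 in T cells. When cells with a UMI of Cdh5, Col1a1, Col3a1, Fabp4, Sparcl1, Col4a1 or Cd36 were left out, an alternative chosen after seeing the data, 14 of 20 genes rose in T cells; too few B cells and macrophages were left. In macrophages the 5 macrophage markers summed to a median of 240 per 10000 with an IFIT UMI (155 to 367) and 151 without (141 to 250), and the 3 plasma cell markers to 2.49 (1.56 to 70.5) and 37.7 (2.13 to 139); their part in the result was not tested. Of the pathway genes, 4 of 27 tested rose in T cells, 5 of 30 in B cells and 11 of 34 in macrophages, and 0 fell, where 1.66%, 1.5% and 3.8% of all genes were called; Gbp7 (0.77, 1.71 and 1.23) and Ddx58 (RIG-I; 0.66, 1.43 and 1.80) were among those called in all 3.

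The share of cells with an IFIT UMI was low throughout. In T cells it was 3.19% to 7.75% in the library A samples and 2.24% to 7.82% in library B, the lowest being Balb/c (exact 95% interval 1.08% to 4.08%). In macrophages it was 3.05% to 13.5% and 3.23% to 11.8%. The 5 genes gave 0.379 UMIs per 10000 in the library A free RNA, against 0.483 in the library A T cells, 0.467 in NK cells, 0.277 in B cells and 0.942 in macrophages. The T, NK and B cell levels of library A are thus near those of free RNA. With library A alone, 13 of 13 genes had a positive log2 fold change in T cells (median 1.07), 11 had an unadjusted p under 0.05 and 1 was called. With library B alone the median was 0.93, and 12 of 23 were called.

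Whether the members changed between gestation and lactation could be asked with 2 samples on each side. In macrophages 6 of 36 tested genes rose and 0 fell in edgeR's quasi-likelihood test with the library year as a block, where 1.26% of all genes were called, 0.884% higher and 0.375% lower. The 6 were Ifi27l2a, Ifitm3, Irf7, Isg15, Ifit1 and Ifit3. The median log2 fold change of the 36 was 0.53, against -0.01 over 8256 genes. Of the 36, 35 were above 0, where 49.4% of all genes were. In both libraries 30 of the 38 were higher in Lactation, a count that was not made over all genes. All 6 calls were lost with DESeq2, without the year block, without the filter, and with a gate of at least 2 UMIs, although the median stayed at 0.51 to 0.64. They were lost as well when any 1 of the 4 samples was left out, in fits that had no year block, the library B Lactation sample with the weak tag included.

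Ifi27l2a had 5.45 UMIs per 10000 in the library A Gestation macrophages and 15.6 in Lactation, and 9.98 and 20.96 in library B. Lactation was higher in both libraries, and the log2 fold change was 1.29 (SE 0.26; edgeR adjusted p = 0.00018). Ifitm3 went from 3.08 to 9.33 in library A and from 7.58 to 10.8 in library B (1.06, SE 0.27; adjusted p = 0.013). Irf7 went from 0.539 to 1.62 and from 0.590 to 1.002 (1.24, SE 0.28; adjusted p = 0.0016). Isg15 went from 0.530 to 0.796 and from 0.325 to 1.03 (1.03, SE 0.29; adjusted p = 0.035). Both IFIT genes rest on few counts. Ifit1 had 5 and 36 UMIs in library A and 12 and 16 in library B (2.20, SE 0.45; adjusted p = 0.00028), and Ifit3 had 25 and 81, then 10 and 10 from 177 and 73 cells (1.63, SE 0.37; adjusted p = 0.0018). Of the pathway genes, Cxcl10 was also higher (1.79, SE 0.31) and 0 were lower. Other markers differed between the same samples: the epithelial markers gave 78.2 UMIs per 10000 in the library A Gestation macrophages and 4.97 in Lactation, against 5.39 and 7.90 in library B. The 5 macrophage markers gave 170 and 263 in library A, and 154 and 152 in library B. Depth differed too. The Gestation and Lactation macrophages had medians of 1549 and 2843 UMIs in library A, and 3563 and 4099 in library B. The part of these markers and of depth in the result was not tested.

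In the other classes little passed. In monocytes 2 of 24 rose, Rsad2 and Ifi27l2a, and 0 fell, where 1.72% of all genes were called, 1.13% higher and 0.593% lower. Rsad2 had 0.315 and 1.54 UMIs per 10000 in library A and 0.244 and 0.688 in library B (1.85, SE 0.43; edgeR adjusted p = 0.048), on 7 to 33 UMIs a sample. Ifi27l2a had 16.9 and 36.8, then 14.4 and 22.4 (0.84, SE 0.18; adjusted p = 0.032). Irf8, a transcription factor of monocyte and dendritic cell development outside the list, fell (-1.42, SE 0.31). Plasma cell markers in the monocyte gate went from 58.8 to 2.90 UMIs per 10000 in library A and from 2.90 to 2.33 in library B, and neutrophil markers from 3.46 to 12.6 and from 28.5 to 14.5; their part was not tested. Both calls were lost with DESeq2 and without the year block. In B cells 1 of 14 rose, Ifitm3 (2.43, SE 0.44; edgeR adjusted p = 0.002; background 0.308%, 0.185% higher and 0.123% lower), and 0 fell; it was lost with DESeq2 and without the year block. The summed macrophage markers in the B cell gate went from 3.94 to 13.7 UMIs per 10000 in library A and from 4.64 to 5.35 in library B, and the monocyte markers from 4.73 to 6.14 and from 4.64 to 8.56; their part was not tested. The Lactation samples had 39 and 25 B cells, and 1 cell held 20.8% of the member UMIs of the first and 41.4% of those of the second. In T cells 0 of 31 were called, where 0.616% of all genes were, 0.269% higher and 0.347% lower. Of the 31, 5 had an unadjusted p under 0.05, and DESeq2 called 0 of them. Their median log2 fold change was 0.31, against 0.01 over all genes. Among them 26 were above 0, where 51.3% of all genes were. In both libraries 29 of the 38 were higher in Lactation, a count that was not made over all genes. In NK cells 0 of 25 members and 0% of 7508 genes were called, with 2 members and 309 genes under an unadjusted p of 0.05 and 0 members called by DESeq2. The summed level in NK cells was 11.9 and 17.3 in library A but 15.6 and 14.6 in library B. Median depths in Gestation and Lactation of library A were 1272 and 2013 UMIs in T cells, and 1313.5 and 2201 in NK cells. In library B they were 3156 and 2784.5 in T cells, and 3460 and 3527 in NK cells. The part of depth in these differences was not tested.

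**Figure D4:**
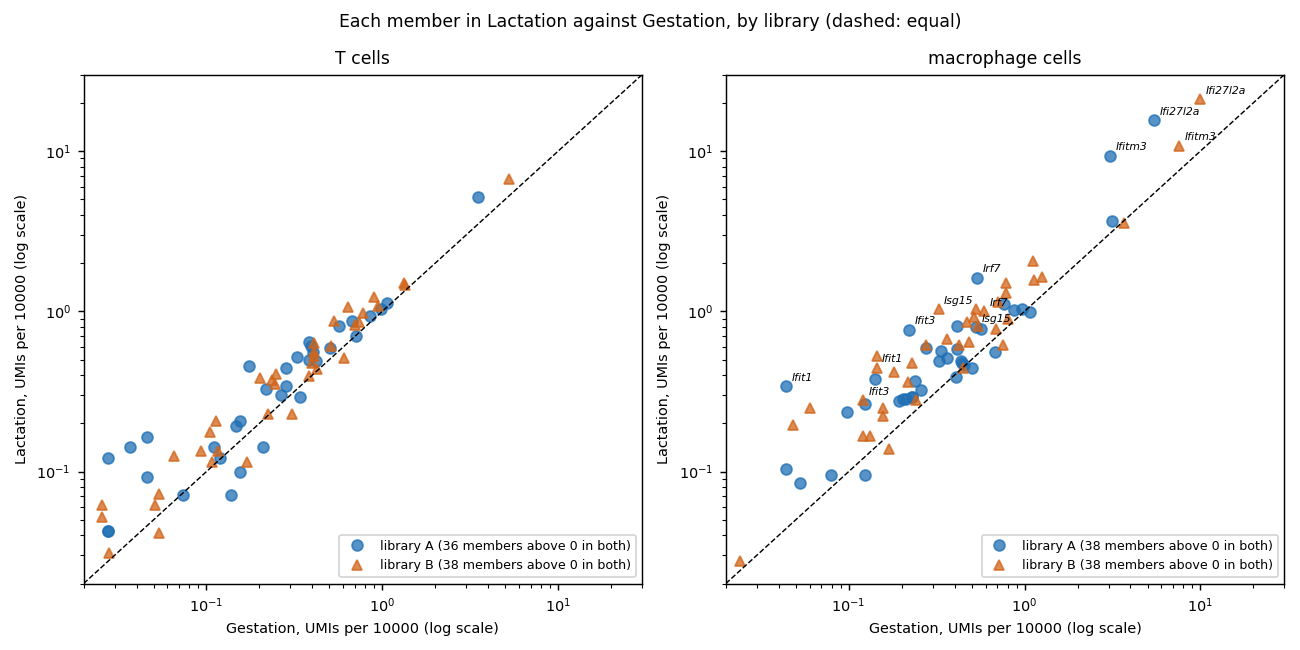
Each member's UMIs per 10000 in Gestation (horizontal, log scale) against Lactation (vertical, log scale) in T cells (left) and macrophages (right), circles for library A and triangles for library B, with the genes called in macrophages named. Genes at 0 are not drawn. In macrophages 33 of the 38 genes in library A and 35 in library B were higher in Lactation, above the dashed line of equality. The same count over all genes was not made.

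Across the other names, where 1 sample allows no test, different samples led in different classes. The counts below were made over the 38 genes only, so whether other genes led in the same samples is not known. Lactation was the highest of the 4 samples of library A for 32 of 38 genes in monocytes, 28 in NK cells and 24 in T cells. In library B the HT2 sample was highest of 7 for 26 genes in macrophages, and Involution for 27 in monocytes and 16 in T cells. Regression was lowest of 7 for 21 genes in monocytes, where its summed level was 43.1, yet its macrophages had 62.3, the second highest value. The HT2 sample of library A was the lowest of 4 for 23 genes in monocytes. Over all cells of a sample the summed level was highest in the library B HT2 sample (49.5) and lowest in the library A Nulliparous (19.6), where the samples also held different numbers of macrophages, 386 of 1789 cells in that HT2 sample and 376 of 5573 in Nulliparous.

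In the Balb/c sample some single genes were at an extreme in most classes. Such genes were found in other library B samples too: Usp18 was highest in Involution, and Irgm1 in Lactation, in 4 of 5 classes each. Ifi44 had 1.54 UMIs per 10000 in Balb/c monocytes (101 UMIs), against 0 to 0.214 in the monocytes of the other 10 samples. In Balb/c macrophages it had 1.04 (64 UMIs), against 0.0708 to 0.294. Ifi44 was the highest of the library B samples in 4 of 5 classes there, but in NK cells its 0.198 was matched by library A Lactation at 0.198. Oasl2 went the other way and was lowest in Balb/c in 4 of 5 classes, at 0.198 in monocytes against 0.410 to 1.34 in the other samples, and at 0.243 in macrophages against 0.299 to 1.38. Trim30a was lowest there in 4 of 5 classes, and Ifit1bl1, Gbp3, Xaf1, Zbp1 and Bst2 in 3 of 5. With 1 Balb/c sample, strain cannot be told apart from anything else in which that sample differed.

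**Figure D5:**
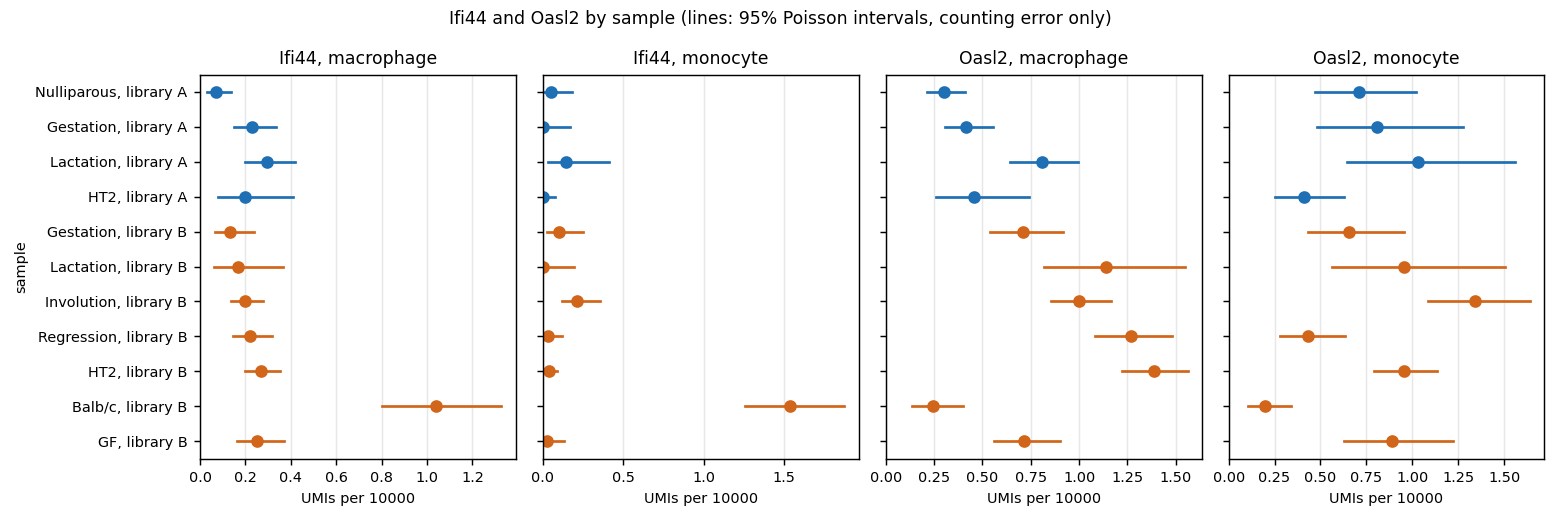
UMIs per 10000 of Ifi44 and Oasl2 (horizontal axis) in macrophages and monocytes of each sample (rows), blue for library A and orange for library B, with exact 95% Poisson intervals that cover counting error only. Balb/c stands to the right of all samples for Ifi44 and to the left for Oasl2.

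The calls can be set beside the ISRE matches. In macrophages against T cells, 11 of 17 genes with a match and 9 of 12 without were higher, and in dendritic cells 6 of 17 and 8 of 12. In macrophages with an IFIT UMI, 12 of 13 and 10 of 11 rose, and in T cells 9 of 10 and 4 of 7. Between gestation and lactation in macrophages 3 of 16 and 2 of 12 rose. No test was made of these splits. Igtp, printed with both elements, and Isg15, printed with a run of ISRE matches, moved apart between macrophages and T cells and together in macrophages with an IFIT UMI.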

How the data were processed

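The authors deposited raw counts: UMIs per gene and barcode, and hash tag reads per barcode, for 2 pooled libraries (A and B). The header of the library A matrix names Cell Ranger 4, and the submitters' processing notes name Cell Ranger 6.1.0 and mm10. Cells needed 500 UMIs, 300 genes and no more than 10% of mitochondrial UMIs. HTODemux (Seurat 5.3.0, quantile 0.99) assigned tags. Cells with 1 tag were used, less Scrublet doublets (called in 9.61% and 7.69% of all cells, whatever their tags). Clusters of cells with at least 50% doublet calls were left out whole, which was 0 clusters in library A and 1 in library B. Raw counts were summed per sample and class with at least 20 cells (10 on each side of the IFIT split) and tested with edgeR 4.0.16 (TMM, filterByExpr, quasi-likelihood, Benjamini-Hochberg, threshold 0.05); DESeq2 1.42.0 was an alternative. Standard errors were derived from the fold change and its F statistic. The script was tested on simulated data. Matrices held 56300251 and 90642638 UMIs; intervals are exact and cover counting error only. Named are all members called between stages, up to 8 per direction and contrast with at least 1 per role, the 10 most counted, up to 10 other genes per IFIT contrast and up to 10 pathway genes; Jak1 and the Balb/c genes were added after their values were seen. One pathway gene is not reported here. Members and lists were chosen with earlier results of these data known.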

Additional observations from a re-analysis of the deposited data

Results flagged for a closer look

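In NK cells the summed level of the 38 genes was 5.40 UMIs per 10000 higher in Lactation than in Gestation in library A, while the same difference was -0.988 in library B. The 2 libraries moved in opposite directions, each with 1 sample per stage, and the difference between them was not tested. In macrophages the share of cells with an IFIT UMI differed in the same way: Lactation minus Gestation was 7.53 percentage points in library A and -1.75 in library B, where 3 of 72 Lactation macrophages had one. That difference was not tested either. Cells with no tag or with more than 1, which entered no comparison, held the 38 genes at 23.4 UMIs per 10000 in library A and 36.7 in library B, the first above the 16.9 of free RNA.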

How the results depend on the processing

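No called value changed direction under any alternative that was run; 2 uncalled medians over the members did. Between stages in NK cells it went from 0.24 to -0.05 with a gate of at least 2 UMIs and to -0.10 without the library A Lactation. In B cells against T cells it went from -0.04 to 0.26 with library A alone, 0.19 with gates that were not exclusive, 0.08 with the stricter gate, 0.0055 without a filter and 0.0032 without the HT2 samples. Counts of called genes moved by over 1.5 times as follows. With DESeq2, 8 rather than 15 genes were called in B cells with an IFIT UMI, and 0 between stages in B cells, macrophages and monocytes (1, 6 and 2 in the report). Without the year block those 3 counts were 0 as well. Leaving out 1 stage sample at a time, also without the block, gave 0 to 1 in B cells, 0 to 0 in macrophages and 0 to 1 in monocytes, where a lone sample is assumed to vary like the others. Without a filter on low counts, 9 were called in B cells with an IFIT UMI and 0 between stages in macrophages. With a gate of at least 2 UMIs, 7 rather than 17 were called in T cells with an IFIT UMI, 0 between stages in macrophages and 1 in monocytes. Library A alone gave 1 in T cells with an IFIT UMI and 1 rather than 7 in NK cells, and library B alone 15 rather than 24 in dendritic cells, where it has 1 dendritic sample, assumed to vary like the others, against 7 of T cells. The cause of these moves was not tested. Without Ifitm3 the monocyte to T cell ratio was 2.49 and 2.04 in library A and library B. The median share of cells with at least 5 member UMIs fell when cells were thinned to 500 UMIs: to 1.33% and 1.98% in T cells, 6.96% and 16.8% in macrophages, and 23.7% and 29.1% in monocytes. With at least 3 member UMIs it was 18.2% and 33.2%, 45.2% and 69.8%, and 74.2% and 71.8%. Of single genes between stages, 61 of 70 alternative values lost the call and 9 kept it; of those in class contrasts, 84 of 903 lost it, and of those in cells with an IFIT UMI, 55 of 254. A split at 2 IFIT UMIs, library A alone for B cells and macrophages, the stricter gate for B cells, and dendritic cells between stages were not run, because too few samples had enough cells. The labels give no replicate numbers; class and IFIT contrasts had the sample as a block, and stage contrasts the library year.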

Other observations

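Irgm1, a regulator of the immunity-related GTPases, was counted at unlike levels in the 2 libraries; it was chosen after its values were seen. It had 0.127 to 0.145 UMIs per 10000 over all cells of the library A samples and 0.367 to 0.558 over those of library B, so the ranges did not overlap. The ratio of library B to library A was 2.95 in Gestation and 4.26 in Lactation for Irgm1, against medians of 1.17 and 1.08 over the 38 genes. Ifi44 had the lowest ratios of the list, 0.619 in Gestation and 0.383 in Lactation.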
